A study of Mus musculus with 8 samples.

Results

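Dying cells are cleared by neighbours that recognise, bind and engulf them, a process called efferocytosis. The genes described here, 10 of the 22520 genes in the expression table, encode receptors, a bridging molecule and a surface signal of this process together with scavenger receptors. They were chosen by gene symbol, as Mertk, Axl, Tyro3, Mfge8, Stab1, Scarb1, Scarf1, Msr1, Marco and Calr, and each symbol matched exactly 1 row. Messenger RNA was sequenced in 8 libraries, 4 labelled wild type (WT) and 4 labelled LRP1 KO, from C57BL/6 mice at postnatal day 14. The labels describe the material of each library as a mixture of small-vessel cells from heart, liver and lung. The paper instead describes endothelial cells of liver and of heart and lung as separate preparations, and which applies to these libraries is not stated. It describes isolation on beads that carry an antibody to PECAM-1, an endothelial surface protein. In the mice it describes, LRP1 KO carried floxed LRP1 alleles on both chromosomes (LRP1 f/f) with Cdh5-CreER+/-, an inducible Cre recombinase driven by the endothelial Cdh5 promoter, and WT littermates were LRP1 f/f; Cdh5-CreER-/-, so both groups carried the floxed alleles. The labels do not say whether the libraries came from separate animals or pools, so the p-values below measure only the spread between these libraries.

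Mertk, Axl and Tyro3 are the TAM receptors, tyrosine kinases that bind phosphatidylserine on dying cells through the soluble ligands Gas6 and protein S (Pros1). Mfge8 (milk fat globule-EGF factor 8) bridges phosphatidylserine to integrins, and calreticulin (Calr), a chaperone of the endoplasmic reticulum, acts as a signal for engulfment when exposed on the cell surface, where LRP1 is its receptor. Scavenger receptors take up modified lipoproteins and other polyanionic ligands. Stabilin-1 (Stab1), Scarb1 (SR-B1, the receptor for high-density lipoprotein) and Scarf1 (SREC-I) are found on endothelium, whereas Msr1 (SR-A) and Marco are best known from macrophages. Stab1 is also made by some macrophages, and Mertk and Axl by macrophages and other cell types.

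Of the 10 genes 8 could be tested, and 1 of these, Msr1, passed an adjusted p of 0.05, against 13.6% of all tested genes. It had a mean of 0.332 FPKM in WT, against 3.55 FPKM in LRP1 KO, and reached the level needed for testing only through its LRP1 KO values. FPKM is a count of sequenced fragments divided by transcript length and library size, so levels of different genes can be set side by side. The unit of the table is inferred from the listed tools and the values, not stated in it. Calr, Axl, Mfge8 and Mertk differed by less than the spread between libraries. Stab1 and Scarf1 were higher in 3 of 4 LRP1 KO libraries, Marco was far higher in the same number of libraries but not the same ones, and Scarb1 lay slightly lower without passing the test.

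The genes lie on 7 chromosomes of the mouse build GRCm38. On the forward strand are Mertk (chr2:128698956-128802894), Tyro3 (chr2:119797733-119818104) and Scarf1 (chr11:75513540-75526582). On the reverse strand are Axl (chr7:25757273-25788705), Mfge8 (chr7:79133768-79149060), Stab1 (chr14:31139013-31168641), Scarb1 (chr5:125277087-125341094), Msr1 (chr8:39581685-39642673), Marco (chr1:120474538-120505024) and Calr (chr8:84841850-84846934). All are annotated as protein coding. Stab1 shares 112 of its 10288 exon bases with Nt5dc2 on the opposite strand, and because the use of strand in counting is not given in the sources used here, reads in that stretch cannot be assigned to either gene.

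Promoter windows (250 bases before to 50 after the start of the gene, from RefSeq on GRCm38.p6) were matched for 7 of the 10 genes, namely Marco, Tyro3, Mertk, Axl, Mfge8, Calr and Stab1. Marco and Stab1 are printed because their levels varied most between LRP1 KO libraries among the genes with a window, and Calr because it was the most abundant and among the steadiest. The Marco window is chr1:120504975-120505274, the Stab1 window chr14:31168592-31168891 and the Calr window chr8:84846882-84847181, all on the reverse strand and written 5′ to 3′ along the gene. Capitals mark GAGGAA, the core bound by the myeloid factor PU.1, in Marco and Stab1, and the endoplasmic reticulum stress element (CCAAT, 9 bases of any kind, then CCACG), which lies on the opposite strand, in Calr.
Marco promoter: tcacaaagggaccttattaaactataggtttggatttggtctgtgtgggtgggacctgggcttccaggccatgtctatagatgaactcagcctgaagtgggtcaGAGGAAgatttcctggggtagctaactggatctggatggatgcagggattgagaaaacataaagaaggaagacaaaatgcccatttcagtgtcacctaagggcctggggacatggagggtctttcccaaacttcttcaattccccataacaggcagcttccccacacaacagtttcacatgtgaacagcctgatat
Stab1 promoter: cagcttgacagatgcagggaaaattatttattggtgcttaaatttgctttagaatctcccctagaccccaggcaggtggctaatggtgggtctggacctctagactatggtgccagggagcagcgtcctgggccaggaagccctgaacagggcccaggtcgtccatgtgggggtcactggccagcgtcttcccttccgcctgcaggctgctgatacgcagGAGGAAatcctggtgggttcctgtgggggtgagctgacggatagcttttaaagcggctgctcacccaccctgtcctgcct
Calr promoter: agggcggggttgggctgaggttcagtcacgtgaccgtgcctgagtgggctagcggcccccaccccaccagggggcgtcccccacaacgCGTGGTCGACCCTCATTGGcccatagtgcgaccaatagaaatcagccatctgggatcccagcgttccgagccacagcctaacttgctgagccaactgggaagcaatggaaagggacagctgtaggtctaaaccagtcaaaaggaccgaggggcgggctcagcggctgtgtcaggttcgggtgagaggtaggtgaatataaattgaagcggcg

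GAGGAA began 146 bases before the start of Marco and 30 bases before that of Stab1, and on the opposite strand it was found in the Axl and Mfge8 windows. Searched on both strands, GAGGAA was present in 28.3% of the 32851 promoter windows, so a match in 4 of 7 windows describes a common sequence. The endoplasmic reticulum stress element, 162 bases before the start of Calr, was present in 39 of the 32851 windows (0.119%). An interferon element (GAAA, 2 bases of any kind, then GAAA), present in 3.44% of all windows, was not matched in the 7 windows. The share of G and C was 47.33% in the Marco window and 60.33% in the Calr window, against a median of 52.67% over all windows. These matches are descriptions of sequence and not of binding.

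The targeted gene followed the labels. Lrp1 stood at 113, 140.4, 103 and 124 FPKM in WT 1 to 4, against 3.45, 5.20, 2.79 and 7.72 FPKM in LRP1 KO 1 to 4 (log2 fold change -4.45, SE 0.23, limma adjusted p = 8.89e-05). LRP1 KO 4, the highest of these 4, also stood apart from the other LRP1 KO libraries across all genes, lying at 0.102 on the leading principal component (60.8% of the variance) against 17.2 to 27.3 for the other 3 and -24.1 to -12.9 for WT. The summed markers of macrophages, Kupffer cells, leukocytes and mural cells were higher in LRP1 KO without overlap. The sums of the other marker lists, among them endothelial, fibroblast, neutrophil, lymphocyte, hepatocyte, lung epithelium and cardiomyocyte, overlapped between the groups. The summed level of 18 macrophage markers was 101.6 to 127 FPKM in WT, against 283 to 671 FPKM in LRP1 KO, and 13 of the 15 tested markers rose, 2 of which were tested only through their LRP1 KO values. Of the other two, 1 had a lower estimate. The summed level of 20 endothelial markers was 192 to 205 FPKM in the WT libraries, then 691, 437 and 509.5 FPKM in LRP1 KO 1 to 3 and 201 FPKM in LRP1 KO 4, with 18 of 18 tested estimates higher, 2 of them past the test. Leukocyte markers (12 genes) summed to 5.46 to 8.60 FPKM in WT, against 20.1 to 40.6 FPKM in LRP1 KO, and mural cell markers (10 genes) to 592 to 757 FPKM, against 970 to 1595 FPKM. Fibroblast markers (13 genes) summed to 2695 to 3870 FPKM in WT, against 2252 to 3515 FPKM in LRP1 KO, above the endothelial sum in every library. The paper describes selection for PECAM-1, but these sums add different genes, so their sizes do not compare cell numbers. Of the 13 fibroblast markers, all tested, 12 had lower estimates, and 3 fell and 1 rose past the test. In bulk libraries like these, more cells of a type and more RNA per cell cannot be told apart.

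The levels spanned more than 3 orders of magnitude. In WT the order of mean levels was Calr, Axl, Mfge8, Scarb1, Mertk, Stab1, Tyro3, Scarf1, Marco and Msr1. Calr was 3.18 times as high as Axl, and Mfge8 was 9.39 times as high as Scarb1. Axl and Mfge8 differed by a factor of 1.11 with overlapping WT ranges, although Axl was above Mfge8 in 4 of 4 WT and 3 of 4 LRP1 KO libraries. Mertk and Stab1 did not differ beyond their spread in WT (factor 1.09), nor did Marco and Msr1 (factor 1.02). The ranges of Scarf1 and Marco also overlapped in WT. Among the TAM receptors, Axl was the highest in both genotypes, with Mertk well below it and Tyro3 lowest. The plot of the 10 genes by library shows this order and the LRP1 KO libraries that left it.

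**Figure D1:**
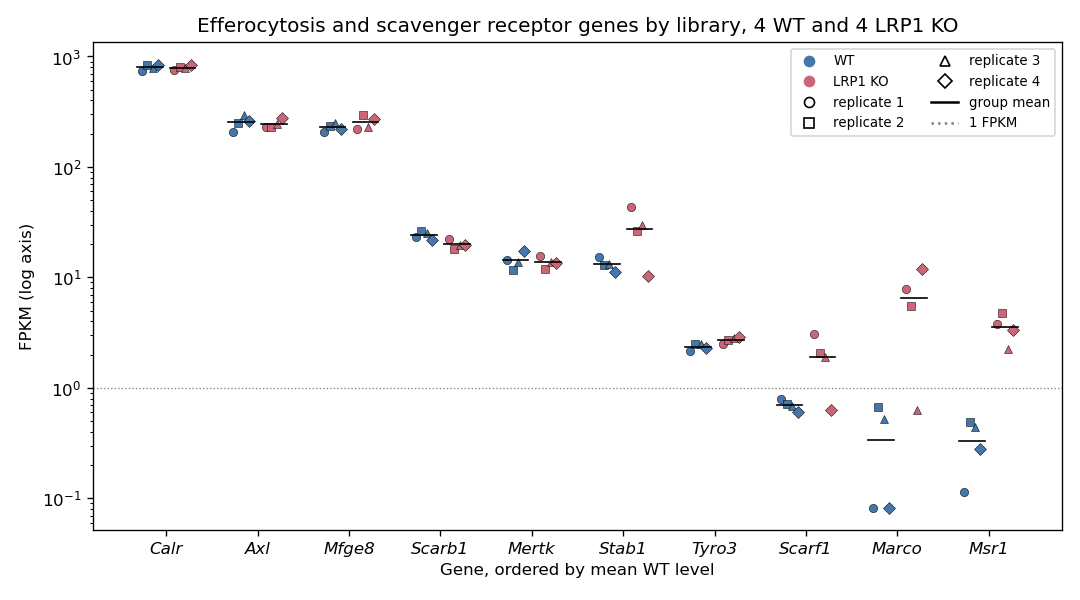
FPKM of each gene (log axis) in the 4 WT (blue) and 4 LRP1 KO (red) libraries, 1 point a library with its shape giving the replicate, bars at the group means and a dotted line at 1 FPKM. Msr1 lies below 1 FPKM in every WT library and at 2.24 to 4.77 FPKM in LRP1 KO, whereas Calr, Axl, Mfge8 and Mertk overlap between the groups.

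To ask whether LRP1 loss went along with a change in these genes, LRP1 KO was compared with WT on log2(FPKM + 1) by limma across the 11389 genes with at least 1 FPKM in at least 4 libraries. Of the 10 genes, 8 were tested and Scarf1 and Marco were not, because they reached 1 FPKM in only 3 libraries each, all LRP1 KO. Msr1 entered the test only through its 4 LRP1 KO values, since no WT library reached 1 FPKM, so it could be tested only if it differed. At an adjusted p under 0.05 the test called 1547 genes, 13.6% of those tested, with 6.27% higher and 7.31% lower in LRP1 KO, and 1.62% at 2-fold or more. Among the 8 tested genes the estimates split evenly, 4 above and 4 below 0, against a median of -0.01 over all tested genes. Msr1 passed, also at 2-fold. Unadjusted p-values under 0.05 were found for 3 of the 8, Scarb1, Stab1 and Msr1, against 33.7% of all tested genes. The groups did not overlap for 2 of the 8, Tyro3 and Msr1, against 19.6% of all tested genes.

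**Figure D2:**
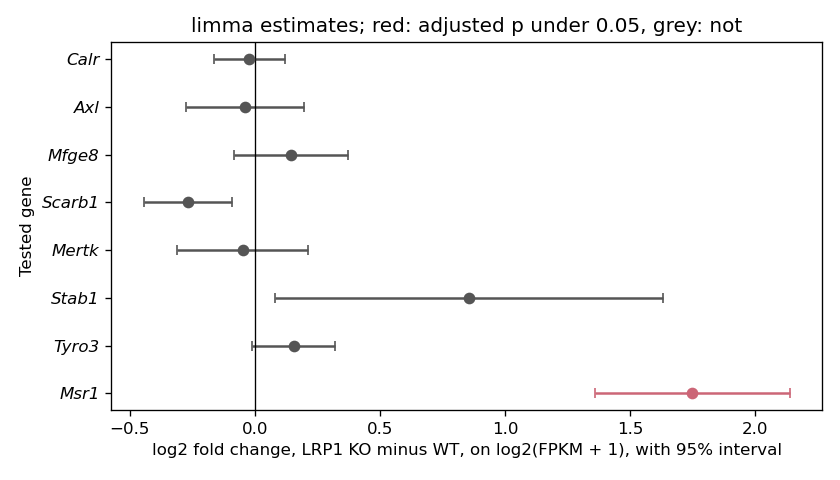
limma log2 fold change (LRP1 KO minus WT, on log2(FPKM + 1)) of the 8 tested genes with its 95% interval, ordered by WT level. Only the Msr1 estimate, 1.75, passed an adjusted p of 0.05 (red), and the Stab1 interval, 0.08 to 1.63, is the widest.

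Calr and Mfge8, the signal and the bridging molecule, were both abundant and neither passed the test. Calr stood at 745, 844, 793 and 842 FPKM in WT, against 752, 800.2, 786 and 836 FPKM in LRP1 KO. The 2 sets of values overlapped almost completely, with means of 806.0 ± 47.0 and 793.5 ± 34.5 FPKM (SD, n = 4 each). The limma estimate was -0.02 on the log2 scale (95% interval -0.16 to 0.12, adjusted p = 0.835). This interval holds fold changes between 0.894 and 1.09. Mfge8 was at 207, 236, 249.8 and 218 FPKM in WT, against 219, 294, 229 and 270.3 FPKM in LRP1 KO. LRP1 KO 2 and LRP1 KO 4 lay above every WT library and the other 2 within the WT range. The estimate for Mfge8 was 0.14 (SE 0.10, adjusted p = 0.345).

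The TAM receptors did not pass the test. Axl, at 209, 252, 294 and 259 FPKM in WT, was at 229, 231, 244 and 279 FPKM in LRP1 KO. Every LRP1 KO value fell within the WT range, and the log2 estimate was -0.04 (SE 0.10, adjusted p = 0.827). Mertk was at 14.4, 11.7, 13.9 and 17.4 FPKM in WT, against 15.6, 11.9, 13.9 and 13.6 FPKM in LRP1 KO. Here too every LRP1 KO value lay within the WT range, with a log2 estimate of -0.05 (SE 0.12, adjusted p = 0.800). On the log2(FPKM + 1) scale the 95% intervals hold fold changes between 0.806 and 1.16 for Mertk and between 0.827 and 1.15 for Axl.

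Tyro3 was the least abundant TAM receptor, at 2.16, 2.50, 2.47 and 2.30 FPKM in WT, against 2.50, 2.69, 2.85 and 2.91 FPKM in LRP1 KO. All LRP1 KO values lay above all WT values, but LRP1 KO 1 and WT 2 were equal to 3 digits, so the separation rests on a margin smaller than the printed precision. The means were 2.36 ± 0.158 and 2.74 ± 0.184 FPKM (SD, n = 4 each). By limma the log2 estimate of 0.16 did not pass (SE 0.07, adjusted p = 0.175), while the exact two-sided permutation test over the 8 libraries gave p = 0.0286, the smallest value that 4 against 4 libraries allow.

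Among the scavenger receptors of the 10 genes, Scarb1 alone had a lower estimate. It stood at 23.4, 26.4, 25.3 and 22.0 FPKM in WT, against 22.3, 18.2, 19.8 and 19.6 FPKM in LRP1 KO. Only LRP1 KO 1 reached the WT range, by lying above WT 4. The means were 24.3 ± 1.95 and 20.0 ± 1.71 FPKM (SD, n = 4 each), a log2 difference of -0.27 (SE 0.08, 95% interval -0.44 to -0.09). This missed the threshold narrowly after adjustment (limma adjusted p = 0.0514, from 0.00719 before adjustment), and the exact permutation p was 0.0571. Over the alternative settings the adjusted p ran from 0.0502 to 0.649. In contrast to Stab1 and Scarf1, described next, Scarb1 in LRP1 KO 4 (19.6 FPKM) lay within the range of the other LRP1 KO libraries. Per 100 FPKM of summed endothelial markers Scarb1 was at 11.4 to 13.3 in WT and at 3.23 to 9.78 in LRP1 KO, without overlap (exact permutation p = 0.0286). That sum was itself above every WT library in LRP1 KO 1 to 3.

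Stab1 was at 15.4, 13.0, 13.1 and 11.1 FPKM in WT, against 43.1, 26.2, 30.1 and 10.3 FPKM in LRP1 KO. LRP1 KO 1 to 3 lay above every WT library, with a mean of 33.1 FPKM and 2.52 times the WT mean, whereas LRP1 KO 4 lay below every WT library. The means were 13.2 ± 1.73 and 27.4 ± 13.5 FPKM (SD, n = 4 each), and the estimate of 0.86 on the log2 scale did not pass (SE 0.34, limma adjusted p = 0.118; exact permutation p = 0.1429). Without LRP1 KO 4 the estimate was 1.25 and passed (limma adjusted p = 0.00135). Over the LRP1 KO libraries Stab1 had the same order as the summed endothelial markers. Per 100 FPKM of summed endothelial markers it was at 7.63, 6.55, 6.40 and 5.79 in WT and at 6.23, 6.00, 5.90 and 5.14 in LRP1 KO. On this scale the groups overlapped and LRP1 KO was not higher (6.59 ± 0.767 and 5.82 ± 0.472, SD, n = 4 each, exact permutation p = 0.1429).

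Scarf1 had the same pattern at a lower level. It stood at 0.801, 0.722, 0.689 and 0.611 FPKM in WT, against 3.06, 2.09, 1.92 and 0.626 FPKM in LRP1 KO. Again LRP1 KO 1 to 3 were above every WT library and LRP1 KO 4 was among the WT values. The difference of mean log2(FPKM + 1) was 0.70, with an exact permutation p of 0.1143, and it was 0.96 without LRP1 KO 4. Per 100 FPKM of endothelial markers Scarf1 was at 0.318 to 0.398 in WT and 0.311 to 0.478 in LRP1 KO, again overlapping. The defining endothelial markers Pecam1 (6.80 to 8.76 FPKM in WT, against 36.3, 18.5, 26.2 and 6.72 FPKM in LRP1 KO) and Cdh5 (8.87 to 11.2 FPKM in WT, against 47.3, 21.5, 33.9 and 8.56 FPKM in LRP1 KO) were ordered over the LRP1 KO libraries as Stab1 was. The 9 markers of liver sinusoidal endothelium summed to 14.98 to 23.2 FPKM in WT and to 54.7, 28.0, 43.2 and 14.1 FPKM in LRP1 KO 1 to 4, again in the order of Stab1. Both tested members of that list had higher estimates and neither passed, while its defining marker Stab2, the sinusoidal relative of Stab1, was at 0.139 FPKM or less in every library. The part of the endothelial markers in the Stab1 and Scarf1 values was not tested beyond these ratios.

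**Figure D3:**
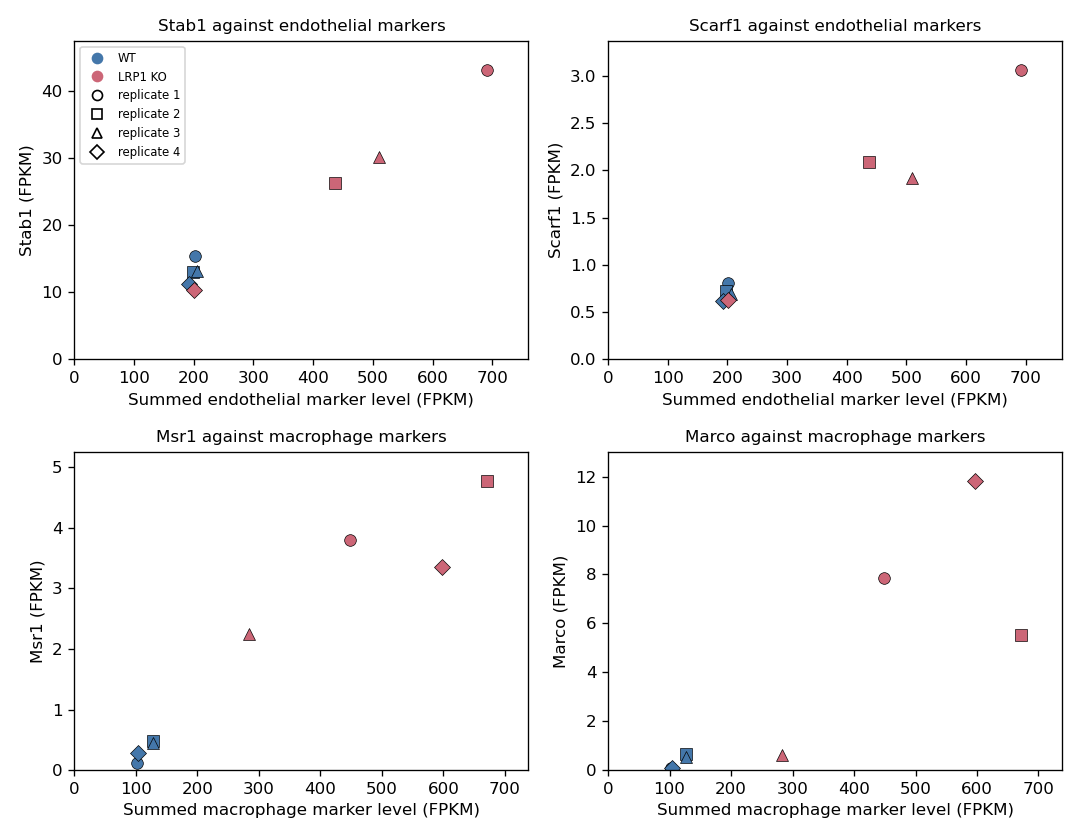
Levels (FPKM) of Stab1 and Scarf1 against the summed endothelial markers and of Msr1 and Marco against the summed macrophage markers (both axes linear, from 0), 1 point a library (WT blue, LRP1 KO red, shape giving the replicate). LRP1 KO 4 lies near 200.9 FPKM of endothelial markers, as WT does, among the WT values for Scarf1 and just below them for Stab1. For Msr1 it lies with the other LRP1 KO libraries, and for Marco LRP1 KO 3 lies at the WT level.

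Msr1 showed the clearest difference. It was at 0.114, 0.487, 0.446 and 0.280 FPKM in WT, against 3.81, 4.77, 2.24 and 3.36 FPKM in LRP1 KO. The lowest LRP1 KO library was 4.60 times as high as the highest WT library, and the means, 0.332 ± 0.170 and 3.55 ± 1.05 FPKM (SD, n = 4 each), differed by a factor of 10.7. On the log2(FPKM + 1) scale, which understates ratios at such low levels, the estimate was 1.75 (SE 0.17, 95% interval 1.36 to 2.14, limma adjusted p = 0.000737), and the exact permutation p was at its smallest, 0.0286. Without LRP1 KO 4 the estimate hardly moved (1.76, limma adjusted p = 0.000756). The macrophage markers rose in the same libraries. Msr1 was at 0.112 to 0.383 per 100 FPKM of summed macrophage markers in WT and at 0.562 to 0.850 in LRP1 KO, without overlap (exact permutation p = 0.0286), but this depended on the markers in the sum. Cd14, one of its most abundant members in WT and picked out after its values were seen, was at 37.3 ± 8.35 FPKM in WT, against 26.9 ± 7.39 FPKM in LRP1 KO (limma adjusted p = 0.136). Per FPKM of Adgre1 alone, a denominator chosen after seeing the data, Msr1 was at 0.905, 1.25, 0.938 and 1.03 in WT and at 1.38, 1.12, 1.17 and 0.941 in LRP1 KO, so the groups overlapped (exact permutation p = 0.3143). Adgre1 itself was 9.88 times as high in LRP1 KO as in WT, the largest ratio of means among the tested macrophage markers. Cd14 was the only tested marker with a lower estimate, so Adgre1 and Cd14 are the extremes of that list. The overlap seen per FPKM of Adgre1 therefore does not stand for the other markers, which were not used singly as denominators. With the mean log2 level of the 18 macrophage markers as a covariate, the Msr1 estimate was 0.61 and did not pass (limma adjusted p = 0.306). That covariate was itself 1.59 to 1.999 in WT and 2.87 to 3.84 in LRP1 KO, so the genotype and the markers cannot be told apart well in such a fit.

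Marco was at 0.0827, 0.666, 0.525 and 0.0821 FPKM in WT, against 7.84, 5.53, 0.636 and 11.8 FPKM in LRP1 KO. LRP1 KO 1, 2 and 4 were far above WT, and LRP1 KO 3 lay within the WT range, just under WT 2. Its means, 0.339 ± 0.302 and 6.45 ± 4.67 FPKM (SD, n = 4 each), gave a log2(FPKM + 1) difference of 2.17 with an exact permutation p of 0.0571. Without a filter on low values limma gave an adjusted p of 0.0694. Leaving out LRP1 KO 4, the highest library, gave a difference of 1.79, and leaving out LRP1 KO 3, the lowest, gave 2.78. The library low in Marco, LRP1 KO 3, also had the lowest Msr1 and the lowest macrophage marker sum of the 4 (283 FPKM), but that sum was still above every WT library. Per 100 FPKM of macrophage markers, Marco was at 0.0789 to 0.524 in WT and 0.225 to 1.98 in LRP1 KO, with overlap.

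Among defining macrophage markers, Adgre1 (F4/80) was at 0.126 to 0.475 FPKM in WT, against 1.91 to 4.26 FPKM in LRP1 KO, and Csf1r, the receptor for colony-stimulating factor 1, was at 2.78 to 2.93 FPKM in WT, against 3.04 to 4.61 FPKM in LRP1 KO. C1qa, at 0.399 to 1.85 FPKM in WT, was at 2.47, 11.2, 1.08 and 12.1 FPKM in LRP1 KO 1 to 4, so it too was at the WT level in LRP1 KO 3. Ptprc (CD45), which marks all leukocytes, was at 0.0316 to 0.161 FPKM in WT, against 0.403 to 0.860 FPKM in LRP1 KO. The 6 Kupffer cell markers summed to 0.733 to 1.53 FPKM in WT, against 2.62 to 8.95 FPKM in LRP1 KO, with the defining Clec4f at 0 apart from 0.0152 FPKM in WT 3 and the 1 tested marker, Cd5l, tested only through its LRP1 KO values. The 7 alveolar macrophage markers summed to 17.7 to 40.2 FPKM in WT and to 53.2, 97.1, 26.7 and 103.5 FPKM in LRP1 KO 1 to 4, so LRP1 KO 3 was within the WT range here as for Marco. Of their 4 tested members 1 rose and the other 3 had lower estimates that did not pass, and the defining Siglecf was at 0.0233 FPKM or less in every library. Whether the Msr1 and Marco values came from macrophages was not tested.

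The genes most like each of the 8 tested genes over the 8 libraries, by Pearson correlation of log2(FPKM + 1), were listed as a description, since all points share the group difference and the normalization. Stab1 ran closest to Egfl7 (r = 0.99), itself in the endothelial list, Gimap6 (0.99) and Plxnd1 (0.99), and Msr1 to Slc15a3 (0.998), Atp6v0d2 (0.997) and Lilrb4 (0.996). These were crowded neighbourhoods, with 276 tested genes at r over 0.9 for Stab1 and 156 for Msr1. For Calr, by contrast, 2 genes were over 0.9, Col1a1 (0.93) and Irak4 (0.91), followed by Sparc (0.90). Mertk was closest to Synj1, Dock5 and Ghdc (0.94 each), Axl to Klf9 and Cnot2 (0.97 each) among the genes reported, and Tyro3 to AI597479 (0.97), Dld (0.96) and Lgals3bp (0.96). Mfge8 was closest to Abcg1 (0.95), Tmem164 (0.92) and Mcl1 (0.91), and Scarb1 to Zbtb40 (0.99), Gab1 (0.99) and Slc25a1 (0.96). The genes named for the 3 TAM receptors did not overlap.

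To set the 10 genes in their pathway, 7 lists of 89 further genes were examined, of which 74 could be tested. In all, 13 rose, 5 fell and 56 did not pass, so 24.3% passed against 13.6% of all tested genes, with a median of 0.05 on the log2 scale. Of the 89 genes, 11 also belong to the macrophage, Kupffer cell or leukocyte lists, and 4 of the 18 that passed were among these 11. Of the rest of these 11, C1qa and Cd14 were tested and did not pass, and Timd4, Cd163, Rac2, Vav1 and Cx3cr1 were too low to test. Among the 18, Cd300lf and Mrc1 were tested only through their LRP1 KO values. The count of 18 varied with the libraries used, from 9 without WT 2 to 32 without LRP1 KO 4. It was 30 with library weights and 0 with the macrophage score as a covariate, so none of the pathway calls below held in that fit. That score did not overlap between the groups and is built in part from genes of these lists. The fit can therefore not separate the markers from the genotype, and no conclusion is drawn from it.

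Bridging molecules and opsonins were the list with the highest median (0.42), and 4 of its 8 tested genes rose. C1qb and C1qc, subunits of the complement opsonin C1q and both in the macrophage list, rose from 2.94 ± 1.099 to 26.8 ± 12.7 FPKM and from 2.03 ± 0.857 to 16.0 ± 8.73 FPKM (limma adjusted p = 0.00237 and 0.00767, SD, n = 4 each). Lgals3 (galectin-3) rose from 268 ± 11.6 to 340.2 ± 21.1 FPKM (adjusted p = 0.0101) and Anxa1 (annexin A1), the most abundant of the list, from 1661 ± 179 to 2343 ± 307 FPKM (adjusted p = 0.0263), with LRP1 KO 4 (1905 FPKM) nearest to the WT libraries (at most 1833 FPKM). The TAM ligands, picked out after their values were seen, did not pass. Gas6 was at 693 ± 139 FPKM in WT, against 478 ± 84.4 FPKM in LRP1 KO (log2 fold change -0.53, limma adjusted p = 0.0531), and Pros1 at 44.0 ± 5.40 and 41.2 ± 6.34 FPKM (adjusted p = 0.61).

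Among 7 tested other receptors for dying cells, only Cd300lf, a myeloid receptor for phosphatidylserine, passed. It was at 0.112 to 0.243 FPKM in WT, against 1.33 to 3.19 FPKM in LRP1 KO (log2 fold change 1.49, limma adjusted p = 0.00126), and like Msr1 it was tested only because of its LRP1 KO values. Itgb5, a subunit of an integrin that binds Mfge8, was the most abundant of that list and was at 66.7 FPKM in both groups (log2 fold change -0.01, adjusted p = 0.946). The list also held 7 genes too low to test.

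The other scavenger receptors moved in both directions, with 4 higher, 3 lower and 3 not passing among 10 tested. Cd36, which binds oxidised lipoproteins and fatty acids, rose from 1.29 ± 0.355 to 9.34 ± 2.34 FPKM (log2 fold change 2.17, limma adjusted p = 0.000389). It was at 9.45, 12.5, 8.38 and 7.01 FPKM in LRP1 KO 1 to 4 and at most 1.56 FPKM in WT. Cd68 (macrosialin), from 8.11 ± 0.624 to 32.4 ± 9.41 FPKM, and Mrc1 (the mannose receptor), from 0.399 ± 0.209 to 3.68 ± 1.77 FPKM, also rose, and both are in the macrophage list (adjusted p = 0.000673 and 0.00721). No WT library reached 1 FPKM for Mrc1, so like Msr1 it was tested only through its LRP1 KO values. Olr1 (LOX-1, a receptor for oxidised low-density lipoprotein) rose from 10.2 ± 3.86 to 26.4 ± 5.91 FPKM (adjusted p = 0.0138), with LRP1 KO 4 (17.8 FPKM) nearest to the WT libraries (at most 14.8 FPKM). In the opposite direction, Scara5, a receptor for ferritin known from fibroblasts and epithelium, fell from 3.36 ± 0.965 to 0.833 ± 0.595 FPKM (log2 fold change -1.29, adjusted p = 0.0160). Fibroblast markers had lower estimates for 12 of 13, and their part in the Scara5 value was not tested. The other two that fell were Cxcl16 (-0.79) and Colec12 (-0.51). Scarb2, a lysosomal relative of Scarb1 and the most abundant of the list, was at 145 ± 12.6 and 149 ± 5.05 FPKM (adjusted p = 0.652).

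Of the genes that act inside the engulfing cell, in the engulfment machinery 3 of 12 tested genes passed, with Ptk2 (focal adhesion kinase) at 15.3 and 19.8 FPKM (limma adjusted p = 0.0283), Elmo1, a partner of Dock proteins in Rac activation, at 1.39 and 2.68 FPKM (adjusted p = 0.0363), and Abca7, a lipid transporter, at 7.42 and 5.67 FPKM (adjusted p = 0.0296), each given as the WT and then the LRP1 KO mean. Over LRP1 KO 1 to 4 Elmo1 was at 3.55, 2.44, 3.06 and 1.68 FPKM (at most 1.66 FPKM in WT) and Ptk2 at 21.9, 18.9, 21.3 and 17.0 FPKM (at most 16.0 FPKM in WT). Both had the library order of the summed endothelial markers, with LRP1 KO 4 just above WT, and the part of those markers was not tested. Rac1, the small GTPase that drives the phagocytic cup, was the most abundant at 213 ± 17.6 and 236 ± 14.9 FPKM and did not pass (adjusted p = 0.194). Of 12 tested signals on or from dying and living cells only Cd47 passed. Cd47, the signal that restrains engulfment, rose from 51.4 ± 5.04 to 66.8 ± 6.29 FPKM (log2 fold change 0.37, limma adjusted p = 0.0279). It was at 71.1, 63.7, 72.9 and 59.5 FPKM in LRP1 KO 1 to 4 and at most 57.3 FPKM in WT, so LRP1 KO 4 was again the nearest to WT. The table holds a second row under this symbol, which was not used here because its identifier is not that of Cd47 in the reference.

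Among the 16 endoplasmic reticulum partners of calreticulin, all tested, only Hyou1, a chaperone of the HSP70 family, passed, with a small rise from 32.6 ± 2.03 to 37.6 ± 0.940 FPKM (log2 fold change 0.20, limma adjusted p = 0.0489). P4hb (protein disulfide isomerase), the most abundant, was at 525 ± 21.9 and 563 ± 21.4 FPKM (adjusted p = 0.223), and the list median was 0.05. Among 9 tested genes of the shedding and regulation of TAM receptors, 8 had estimates below 0 and only Adam17, a protease that cleaves Mertk from the cell surface, passed. It fell from 21.8 ± 1.70 to 16.3 ± 1.72 FPKM, with all LRP1 KO libraries (14.5 to 18.7 FPKM) below all WT libraries (19.7 to 23.9 FPKM; log2 fold change -0.40, limma adjusted p = 0.0193). Adam10, also a sheddase, was the most abundant of that list by its mean over the 8 libraries and did not pass (adjusted p = 0.345). In WT alone Nr1h2 was higher, at 35.7 FPKM against 32.7 FPKM for Adam10.

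**Figure D4:**
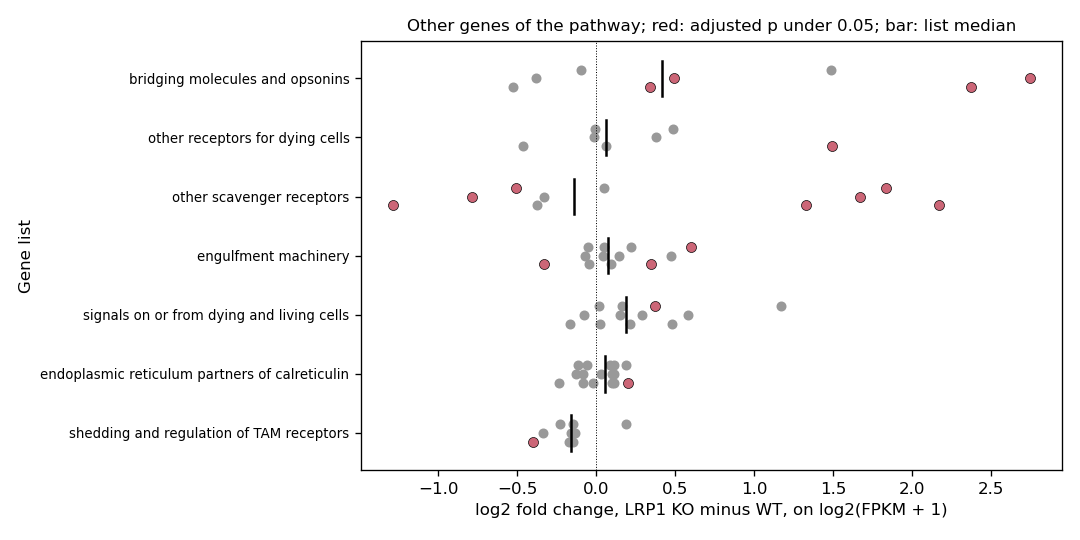
log2 fold change (LRP1 KO minus WT, on log2(FPKM + 1)) of the 74 tested genes in the 7 pathway lists, 1 point a gene, red at an adjusted p under 0.05, with a bar at each list's median. Of the 18 red points 13 lie to the right of 0, with C1qb (2.75) the farthest, and 5 to the left, with Scara5 (-1.29) the farthest.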

How the data were processed

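The libraries were made with an Illumina TruSeq kit from total RNA. Per the submitters' processing notes TopHat2 and Cufflinks were used with mm10; the study's methods name another pipeline, and which of these made the table is not stated. The values the authors deposited are read here as FPKM, a unit inferred from the tools and the values. They had been quantile normalized across the 8 libraries (sorted values of at least 1 spread by a median of 0.575%, column sums 503571 to 504112), so depth is unknown and counting error cannot be given.

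Each list gene was matched by Ensembl identifier. Expression was analysed as log2(FPKM + 1) for the 11389 genes with at least 1 FPKM in at least 4 libraries, using limma 3.58.1 with a mean-variance trend in R 4.3.3 and Benjamini-Hochberg adjustment over all of them. The fit was tested on simulated data. Single genes were also compared by exact two-sided permutation over the libraries. The members and gene lists were chosen with earlier results of these data known. Genes named from a list were those past an adjusted p of 0.05 and 2-fold, then others past 0.05 up to 4, and the most abundant; the 3 most correlated genes were named for each tested member, apart from 1 gene that is not reported here. Positions came from GENCODE M21. Alternatives were a pseudocount of 0.1, no filter, rescaled libraries, library weights, a macrophage covariate, a replicate block and leaving out each library.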

Additional observations from a re-analysis of the deposited data

How the results depend on the processing

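For the 8 tested members, 102 of 112 alternative values kept their direction and their side of the threshold, and for Scarf1 and Marco, which have no test, 20 of 22 moved by less than the spread between libraries. With library weights 2 of the 10 genes passed, also at 2-fold (Msr1, and Stab1 at 1.18, adjusted p = 0.0156), and 30 pathway genes passed in place of 18. With the macrophage score as a covariate no member passed, nor at 2-fold (0 and 0), and 0 pathway genes did, with Mertk at 0.35, Mfge8 at -0.52 and Stab1 at 2.22 (adjusted p = 0.215). The score did not overlap between the groups, so this fit cannot separate the markers from the genotype. Leaving out each library in turn gave 1 to 2 members, also at 2-fold, and 9 to 32 pathway genes: 32 without LRP1 KO 4, 9 without WT 2, 11 without WT 1 and 10, 10 and 11 without LRP1 KO 1, 2 and 3. Over the same runs Mertk ranged from -0.14 to 0.044, Axl from -0.13 to 0.036 and Calr from -0.059 to 0.0037, signs that turn around 0. With a pseudocount of 0.1, Msr1 was at 3.13, Scarf1 at 1.15 and Marco at 3.65. The cause of these changes was not tested. With the replicate number as a block 1 member and 17 pathway genes passed, and Msr1 kept its call. Deviations of same-numbered libraries correlated at 0.16, 0.14, 0.34 and -0.31. LRP1 KO 1, LRP1 KO 2 and LRP1 KO 3 correlated best with the WT library of their own number. LRP1 KO 4, WT 2 and WT 4 correlated best with another number, so the numbers were not taken as pairs. Lrp1 kept its direction and call in every alternative run. Depth is unknown, so for the genes under 1 FPKM in WT counting error cannot be separated from spread between libraries.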
